A study of Homo sapiens with 6 samples.

Results

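The 7 APOBEC3 genes of the human genome, APOBEC3A, APOBEC3B, APOBEC3C, APOBEC3D, APOBEC3F, APOBEC3G and APOBEC3H, were examined in COV434 cells with and without BRG1 reexpression. They were taken by gene symbol from a table of 19899 genes, and each of the 7 had a row. COV434 is an established line of ovarian tumor cells, treated in the study as a model of SCCOHT, a rare small cell cancer of the ovary in which BRG1, the SWI/SNF ATPase encoded by SMARCA4, is lost. Control cells received a control plasmid, for which the methods name pCMV-neo or pCDNA3-neo without saying which was used here (Control, n = 3), and BRG1 cells the plasmid PBJ5-BRG1 (BRG1, n = 3). All 6 samples also received a puromycin resistance plasmid, pBABE-puro, were given puromycin (between 2 and 3 µg/ml) from 24 hours after transfection, and were collected 3 days later for poly(A) RNA-seq. The design describes biological replicates of a single line under transient transfection, so the values are averages over the cells that survived selection, and a change in the share of expressing cells and a change in RNA per cell cannot be told apart.

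APOBEC3 proteins are zinc-dependent enzymes that convert cytosine to uracil, mainly in single-stranded DNA. They restrict retroviruses and retrotransposons by mutating the viral complementary DNA or by blocking reverse transcription, and several are induced by interferon in immune cells. APOBEC3A, APOBEC3C and APOBEC3H carry a single deaminase domain, and the other members carry a pair. APOBEC3A and APOBEC3B are also known as sources of cytosine mutations in tumors, and APOBEC3G as a target of the HIV-1 protein Vif.

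The genes lie side by side on the plus strand of chromosome 22, from 38952741 to 39104067 (GRCh38, GENCODE release 44), a stretch of 151 kb with no other gene of the table inside it. APOBEC3A starts at 38952741 and APOBEC3H, the last, spans 39097224 to 39104067. Because the members arose by duplication, reads can fit more than one of them. Of the read-length windows (78 bases) in the protein-coding transcripts of each gene, 22.6% of those of APOBEC3B, 18.8% of those of APOBEC3A, 9.28% of those of APOBEC3G and 7.09% of those of APOBEC3F also occurred, on either strand, in a transcript of another gene. For APOBEC3D the share was 81.5%, mostly because an overlapping annotated gene without a symbol covers 83.2% of its exonic bases, while windows shared with other APOBEC3 genes made up 10.7%. For APOBEC3C the share was 0.156% and for APOBEC3H it was 0%. The division of reads may therefore be uncertain for APOBEC3A, APOBEC3B, APOBEC3D, APOBEC3F and APOBEC3G. APOBEC3B also shares 12.9% of its exonic bases with its antisense gene APOBEC3B-AS1, which these unstranded libraries cannot separate. These shares rest on release 44 and on single reads, whereas the methods name an earlier GENCODE release for counting and paired-end reads. Whether that release held the gene that overlaps APOBEC3D was not checked, and the use of read pairs was not tested.

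The promoter of APOBEC3H is shown because APOBEC3H is the member with the largest fold change. RefSeq (GRCh38.p14) gave a promoter sequence for 1 of the 7 members, and it covers chr22:39096994-39097293 on the plus strand, 250 bases before to 50 bases after the transcription start. Positions in it are counted from that RefSeq start, which lies after the GENCODE gene start of 39097224 given above. Capitals mark the match to the recognition sequence of interferon regulatory factors.

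APOBEC3H: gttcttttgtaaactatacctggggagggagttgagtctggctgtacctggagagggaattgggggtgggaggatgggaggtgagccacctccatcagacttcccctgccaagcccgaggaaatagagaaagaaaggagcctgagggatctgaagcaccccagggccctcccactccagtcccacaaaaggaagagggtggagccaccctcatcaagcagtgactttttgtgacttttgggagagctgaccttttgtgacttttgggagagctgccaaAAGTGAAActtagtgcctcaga

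The core of the interferon-stimulated response element (TTTC, any 2 bases, TTTC), the STAT site GAS (TTCNNNGAA) and the AP-1 site (TGANTCA) were searched on both strands and had 0 matches each, where 3.57%, 7.66% and 7.71% of 35116 promoters of this length held them. The shorter interferon regulatory factor sequence (AANNGAAA), which was added after the sequence had been seen and which every response element core contains, matched once as AAGTGAAA from position 29 after the start. It occurred in 22.8% of promoters, so such a match is common. The longest stretch found in 2 copies in the window was ttttgtgacttttgggagagctg, 23 bases long, with copies that begin 25 bases before the start and at position 2 after it.

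The libraries held 29699741 to 63613710 estimated counts, with BRG1 sample 3 the shallowest. Levels are given as CPM, the usual count unit relative to library size, here after TMM scaling. The groups were compared with the quasi-likelihood test of edgeR over the 14225 genes that reached 10 counts in 3 or more samples. SMARCA4, plasmid transcripts included, rose from 33.9 ± 2.59 to 1921 ± 344 CPM (SD, n = 3), a log2 fold change of 5.83 (SE 0.17; edgeR adjusted p 6.0e-06). The second SWI/SNF ATPase, SMARCA2, stood at 0.362 ± 0.246 and 0.523 ± 0.338 CPM (SD, n = 3). Of 7 granulosa cell markers, FOXL2 and AMHR2 held 3 counts or fewer in every sample, and the summed level of the 7 was 6.38 to 10.2 CPM in Control and 13.9 to 19.7 in BRG1 samples. Most of the difference came from CYP19A1, the 1 marker called higher, which rose from 0.507 ± 0.175 to 6.95 ± 2.38 CPM (SD, n = 3). AMH (6.44 and 8.84 CPM) and INHA (0.914 and 0.827 CPM in Control and BRG1 samples) were not called, and FSHR and NR5A1 were too low to be tested.

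**Figure D1:**
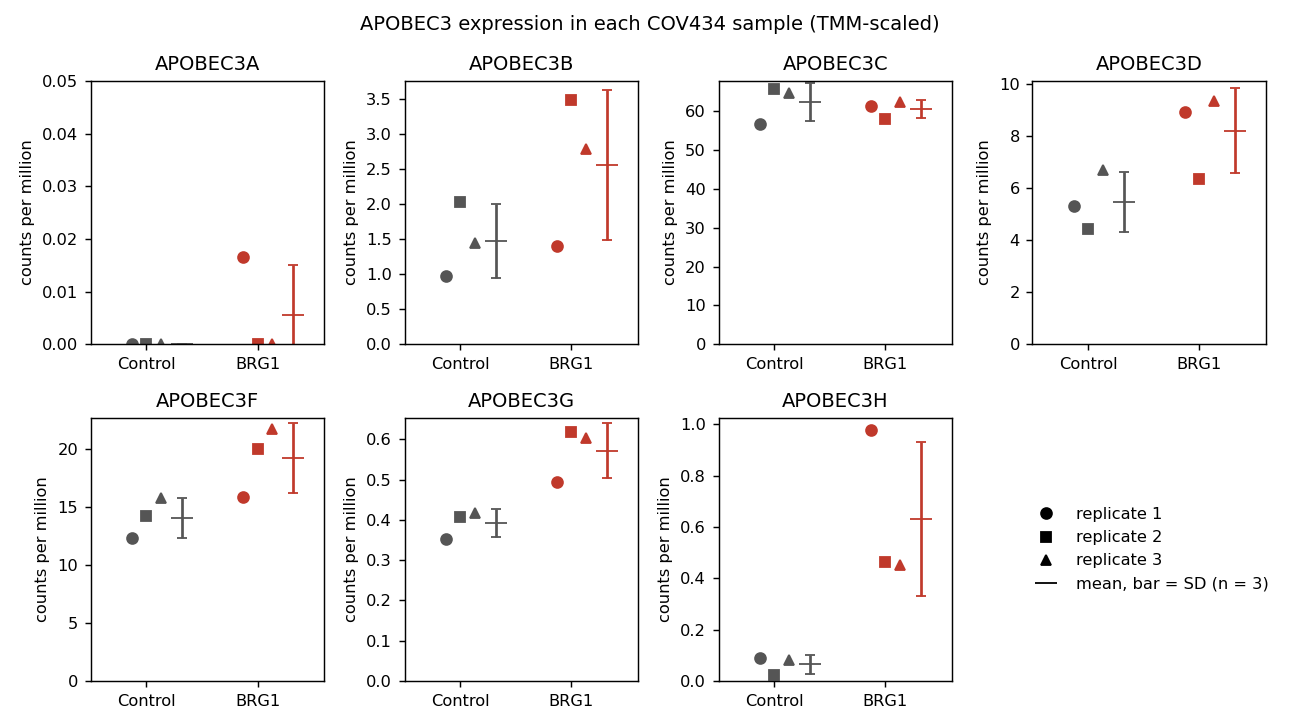
TMM-scaled CPM (vertical axes, each from 0) of the 7 APOBEC3 genes in the Control samples (grey) and BRG1 samples (red), with symbols for replicate numbers 1 to 3 and the mean with SD (n = 3) beside them. APOBEC3H lies below 0.1 in every Control sample and above 0.4 in every BRG1 sample, while APOBEC3C lies between 56.8 and 65.8 in all 6.

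Of the 7 members, 6 could be tested, and APOBEC3H was the 1 gene called higher with BRG1 at an edgeR adjusted p under 0.05. No member was called lower (0 genes, and 0 at an unadjusted p under 0.05). Over all tested genes 9.23% were called higher and 0.984% lower. APOBEC3B, APOBEC3D, APOBEC3F and APOBEC3G had fold changes between 1.36 and 1.72 and were not called, and APOBEC3C had a fold change of 0.971. With the replicate number as a block, edgeR called 3 members higher (APOBEC3D, APOBEC3F and APOBEC3H) and 0 lower, where 13.3% of all tested genes were called higher and 5.50% lower.

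APOBEC3H encodes a single-domain deaminase that restricts Vif-deficient HIV-1. Its estimated counts were 3.39, 0.851 and 4.97 in Control samples 1 to 3 and 63.1, 25.6 and 13.8 in BRG1 samples 1 to 3. In CPM these were 0.0906, 0.0218 and 0.0814 against 0.977, 0.461 and 0.453. Every BRG1 sample lay above every Control sample, and BRG1 sample 1, which also had the highest SMARCA4 level (2318 CPM, against 1716 and 1728 in the others), was the highest. BRG1 sample 1 was also the deepest library, and a relation of APOBEC3H to the SMARCA4 level was not tested. The log2 fold change was 3.27 (SE 0.59; 95% interval 1.91 to 4.63), a fold of 9.63, with an edgeR adjusted p of 0.00924. Taken number by number, BRG1 exceeded Control by 10.8, 21.1 and 5.56-fold. The gene passed the filter on low counts through the BRG1 samples alone, and in Control it rested on at most 4.97 counts a library, so the size of the fold is imprecise, with an interval from 3.75 to 24.7-fold. The call held in each fit that left out 1 sample (edgeR adjusted p 0.00759 to 0.0415; log2 fold change 2.80 to 3.55). These fits kept the filter of all 6 samples. With any BRG1 sample left out, APOBEC3H would otherwise have failed the filter and not been tested.

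APOBEC3A, the member that interferon induces strongly in myeloid cells, was at the floor. It held 0 counts in 5 samples and 1.07 counts in BRG1 sample 1. A library at 0 allows up to 3 counts, which is 0.0464 to 0.0985 CPM at these depths, so no fold was computed and a change of APOBEC3A was not detectable. The APOBEC3H level in BRG1 samples was above that limit in each library.

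APOBEC3B is a nuclear deaminase. It held 36.2, 78.8 and 88.0 estimated counts in Control samples 1 to 3 and 90.2, 193 and 85.0 in BRG1 samples 1 to 3, or 0.970, 2.02 and 1.44 against 1.40, 3.49 and 2.79 CPM. The groups overlapped, since BRG1 sample 1 lay below Control samples 2 and 3. The log2 fold change was 0.78 (SE 0.43; 95% interval -0.22 to 1.79; edgeR adjusted p 0.381). Folds between same-numbered samples were 1.44, 1.72 and 1.93. The blocked fit gave an edgeR adjusted p of 0.0754.

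APOBEC3C, a single-domain member with weak activity against HIV-1, held 56.8, 65.8 and 64.6 CPM in Control samples and 61.3, 58.1 and 62.5 in BRG1 samples. The BRG1 values lay within the Control range. With 1904 to 3958 estimated counts a library it was the best measured member, and its log2 fold change of -0.04 (SE 0.11; edgeR adjusted p 0.883) had a 95% interval from -0.29 to 0.20, that is, between 0.818-fold and 1.15-fold. A change of APOBEC3C like that of APOBEC3H lies outside this interval.

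APOBEC3D and APOBEC3F, double-domain members that restrict HIV-1, showed smaller differences than APOBEC3H. APOBEC3D held 5.30, 4.43 and 6.72 CPM in Control samples and 8.94, 6.35 and 9.36 in BRG1 samples, so that BRG1 sample 2 fell below Control sample 3. Its log2 fold change was 0.58 (SE 0.25; edgeR adjusted p 0.250), a fold of 1.49 with a 95% interval from 0.998 to 2.23. With the replicate block the log2 fold change was 0.58 (SE 0.16) and the gene was called (edgeR adjusted p 0.0434), with folds of 1.69, 1.43 and 1.39 within numbers. As given above, most of its exonic bases are shared with an overlapping gene in GENCODE release 44, a later release than the one used for counting.

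APOBEC3F held 12.3, 14.2 and 15.7 CPM in Control samples and 15.9, 19.96 and 21.7 in BRG1 samples, without overlap. Its log2 fold change was 0.44 (SE 0.18; 95% interval 0.03 to 0.86; edgeR adjusted p 0.217), and with the replicate block 0.44 (SE 0.11; edgeR adjusted p 0.0320). The folds within numbers were 1.29, 1.41 and 1.38, close to one another. DESeq2 with the block also called APOBEC3D and APOBEC3F (adjusted p 0.0339 and 0.0138) beside APOBEC3H, where it called 13.4% of genes higher and 6.62% lower, and without the block it called APOBEC3H alone, where it called 11.0% higher and 1.84% lower.

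APOBEC3G, the best known HIV-1 restriction factor of the family, was low. It held 13.2, 15.8 and 25.5 estimated counts in Control and 31.8, 34.3 and 18.3 in BRG1 samples. On the scaled values, 0.353, 0.406 and 0.418 against 0.493, 0.618 and 0.602 CPM, the groups did not overlap. The log2 fold change of 0.51 (SE 0.34; 95% interval -0.29 to 1.31) was not called without the block (edgeR adjusted p 0.497) or with it (0.376). Folds between same-numbered samples were 1.40, 1.52 and 1.44.

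Beyond single genes, 5 of the 6 tested members were higher with BRG1 within all 3 replicate numbers, as were 26.1% of all tested genes, and 3 of the 6 had every BRG1 sample above every Control sample, as did 15.6% of all tested genes. APOBEC3H passed the filter only because it was high with BRG1, so it could not have counted otherwise.

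**Figure D2:**
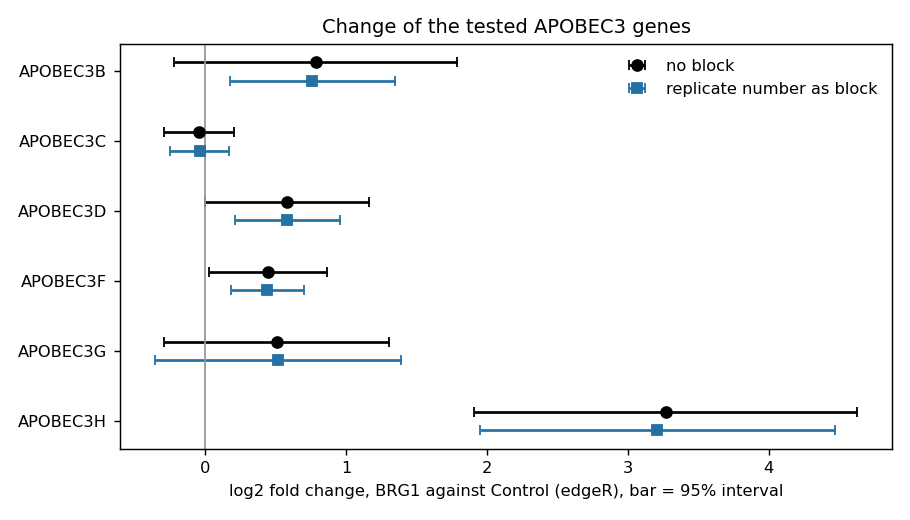
Log2 fold change of BRG1 against Control (horizontal axis) for the 6 tested APOBEC3 genes, with 95% intervals, in the edgeR fit without a block (black circles) and with the replicate number as a block (blue squares). The block hardly moved the estimates but narrowed the intervals of APOBEC3B, APOBEC3D and APOBEC3F, and the intervals of APOBEC3H lie apart from those of the other members.

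Levels were compared between members per kilobase of transcript, with the mean length of the protein-coding GENCODE transcripts. In Control, APOBEC3C stood at 23.6 ± 1.84 CPM per kilobase (SD, n = 3), followed by APOBEC3F (5.51 ± 0.676), APOBEC3D (3.25 ± 0.683), APOBEC3B (0.940 ± 0.335), APOBEC3G (0.251 ± 0.022) and APOBEC3H (0.0794 ± 0.0458). With BRG1 the order was the same except that APOBEC3H (0.774 ± 0.369) passed APOBEC3G (0.365 ± 0.044), and APOBEC3H then overlapped APOBEC3B (1.63 ± 0.677). Of the summed level per kilobase, APOBEC3C made up 70.2% in Control and 60.2% in BRG1 samples, and APOBEC3H 0.236% and 2.03%. The order was kept with the union of all exons as length, although APOBEC3D and APOBEC3F then overlapped in both groups and APOBEC3G and APOBEC3H in Control. The lengths come from a later annotation than the one used for counting, and they are an approximation to the lengths used there. By level, APOBEC3H remained a minor member of the family in these cells.

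The pattern of APOBEC3H over the 6 samples was most like that of KCNK12 (Pearson r 0.999), which encodes a potassium channel, MGAM (r 0.998), which encodes the starch-digesting enzyme maltase-glucoamylase, and MMP15 (r 0.998), which encodes a membrane-bound metalloproteinase. These r values are descriptions over 6 samples in 2 groups, and 526 of 14219 genes had an r above 0.95. MGAM rose from 0.167 ± 0.103 to 6.54 ± 3.94 CPM (SD, n = 3), KCNK12 from 1.92 ± 0.700 to 10.8 ± 4.05 and MMP15 from 16.5 ± 5.68 to 60.6 ± 17.5, with edgeR adjusted p-values of 0.00150, 0.00466 and 0.00610. The 3 genes were picked for their likeness to APOBEC3H in these same samples. A difference between the groups followed from that choice, so these p-values are no separate evidence.

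Other genes that act with or beside the APOBEC3 enzymes were taken from lists. Of 22 genes known to restrict retroviruses, which did not include the APOBEC3 genes, 21 were in the table and 20 were tested. Of these, 14 were called higher and 0 lower (edgeR; 0 lower at an unadjusted p under 0.05), where 9.23% of all tested genes were called higher and 0.984% lower. Of the 14, 6 (MX2, IFITM1, IFITM2, IFITM3, GBP5 and BST2) reached 10 counts in no Control sample, so that, like APOBEC3H, they passed the filter through the BRG1 samples alone and could only count as higher. The median log2 fold change was 2.47 with these 6 genes included, all of which lay above it. A median without them was not computed. Setting genes at the floor to their bound could not change the median, because their bounds also lay above it. The median was 0.54 over the 6 tested APOBEC3 genes, APOBEC3H included, and -0.04 over all tested genes. MX2, which blocks nuclear import of HIV-1, held 0 counts in every Control sample and rose to 7.88 ± 2.94 CPM (SD, n = 3), at least 114.5-fold against the floor of 3 counts a library. IFITM1, which hinders virus entry, rose from at most 2.02 counts a library to 36.3 ± 19.3 CPM (SD, n = 3; edgeR adjusted p 0.000148). BST2, which tethers virus particles to the cell surface, had a log2 fold change of 9.50 (SE 0.68; edgeR adjusted p 0.000147) and TRIM22, an interferon-induced ubiquitin ligase, of 6.79 (SE 0.44; edgeR adjusted p 0.000111). With the replicate block, 14 were called higher and 1 lower, SERINC5 (-0.36; edgeR adjusted p 0.0338), whose protein reduces the infectivity of HIV-1 particles.

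Of 23 interferon signalling genes, 16 were tested, 6 were called higher and 0 lower (0 lower at an unadjusted p under 0.05), beside 9.23% and 0.984% of all tested genes, with a median log2 fold change of 0.44. With the replicate block edgeR called 9 higher and 0 lower, where the shares over all tested genes were 13.3% and 5.50%. The block added the receptor gene IFNGR1 (adjusted p 0.0298), the kinase gene JAK1 (0.0315) and IRF1 (0.000557), a transcription factor gene. IFNB1 is the 1 called gene here that reached 10 counts in no Control sample. IFNB1, the gene of interferon beta, held at most 1 count in a Control sample and rose to 1.24 ± 0.506 CPM (SD, n = 3; edgeR adjusted p 0.00139). USP18, which dampens signalling at the interferon receptor, had a log2 fold change of 3.49 (SE 0.18) and IRF9, a DNA-binding subunit of the factor that type I interferon activates, of 2.12 (SE 0.11), with edgeR adjusted p-values of 4.9e-05 and 6.4e-05. A relation of IFNB1, USP18 or IRF9 to the level of any APOBEC3 gene was not tested.

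Among 18 relatives of the family and other deaminases, 8 were tested, and ADAR, which edits adenosine to inosine in double-stranded RNA, was the 1 gene called. It rose from 469 ± 43.2 to 923 ± 68.9 CPM (SD, n = 3), a log2 fold change of 0.98 (SE 0.11; edgeR adjusted p 0.00111). None was called lower (0 genes, and 0 at an unadjusted p under 0.05), and the median log2 fold change was -0.09. The 1 gene called higher was 12.5% of the 8 tested, near the 9.23% over all tested genes, of which 0.984% were called lower. The closest relatives were low. APOBEC1 held 0 counts in all 6 samples, APOBEC4 at most 1.99 and APOBEC2 at most 33.0, both highest in BRG1 sample 1, and none of these 3 passed the filter.

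Uracil left in DNA by these enzymes is removed by base excision repair. All 17 genes of uracil repair were tested, and edgeR called 0 in either direction, beside 9.23% higher and 0.984% lower over all tested genes. DESeq2 also called 0, beside 11.0% and 1.84%. At an unadjusted p under 0.05 edgeR had 0 higher and 2 lower, APEX1 and POLB. The median log2 fold change was -0.20. With the replicate block edgeR called TDG higher (log2 fold change 0.32; adjusted p 0.0451) and APEX1 lower (-0.35; adjusted p 0.0343), which encode a thymine and uracil glycosylase and the main endonuclease for abasic sites. The blocked shares over all tested genes were 13.3% higher and 5.50% lower. Of 23 genes reported as regulators of APOBEC3B, among them NF-kappaB subunits, TEAD factors and members of the DREAM complex, edgeR called 0 in either direction (0 at an unadjusted p under 0.05) and DESeq2 called 0, and the median log2 fold change was -0.02. With the block edgeR called 2 higher, NFKB1 (0.48; adjusted p 0.0309) and TEAD1 (0.34; adjusted p 0.0468), and 2 lower, RBL1 (-0.53; adjusted p 0.0425) and LIN54 (-0.42; adjusted p 0.0493). The shares over all tested genes, without and with the block, were those given for uracil repair.

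**Figure D3:**
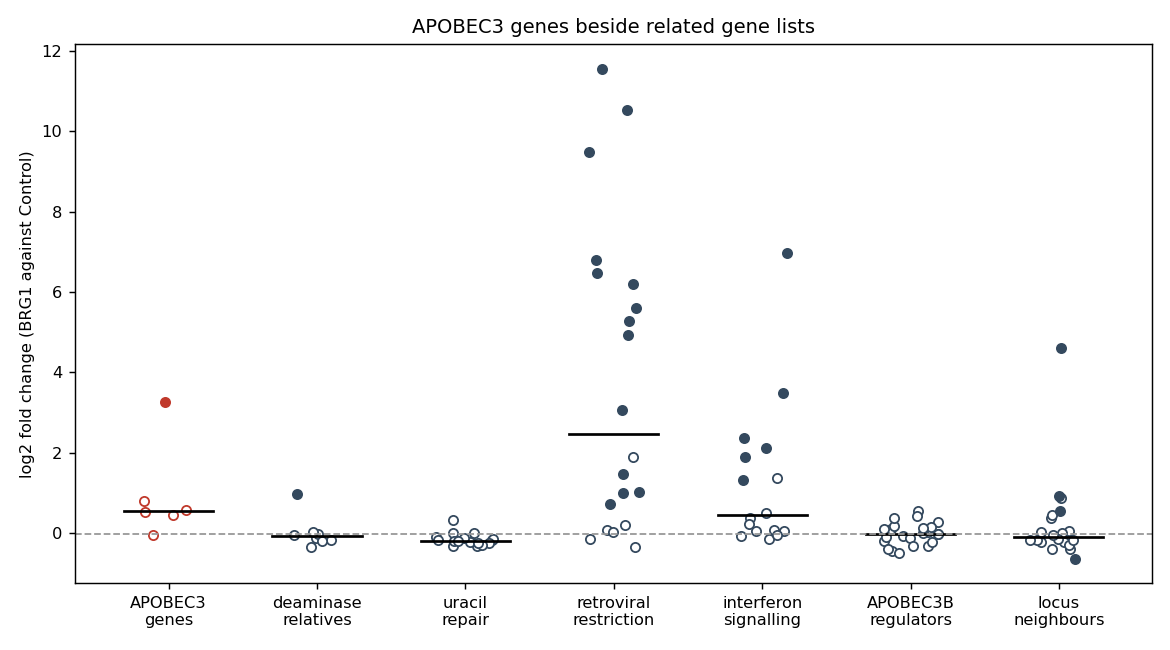
Log2 fold change of BRG1 against Control (vertical axis) for the tested APOBEC3 genes (red) and the tested genes of 6 lists (dark), with filled symbols for genes called by edgeR, a bar at each list's median and a dashed line at the median of all tested genes (-0.04). Filled symbols make up 14 of 20 retroviral restriction genes and 1 of 6 APOBEC3 genes. Fitted values of genes at the floor in Control, such as MX2 and IFITM1, depend on the prior count.

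The genes around the cluster were examined because the APOBEC3 genes lie together. Of the 10 nearest measured genes on each side, 3 of the 20 were called higher and 1 lower by edgeR, beside 9.23% and 0.984% of all tested genes, and the median log2 fold change was -0.11. With the replicate block 4 were called higher and 2 lower, beside 13.3% and 5.50%. PDGFB, which encodes a growth factor chain and lies 119292 bases beyond the cluster, rose from 0.151 ± 0.172 to 3.49 ± 2.32 CPM (SD, n = 3), a log2 fold change of 4.60 (SE 0.98; edgeR adjusted p 0.0213). NPTXR, a neuronal pentraxin receptor gene, and GTPBP1, a GTP-binding protein gene, had log2 fold changes of 0.91 and 0.54 (edgeR adjusted p 0.0278 and 0.0228). RPL3, a ribosomal protein gene, had one of -0.65 (edgeR adjusted p 0.0160). CBX7, the nearest gene beyond APOBEC3H at 16100 bases, had one of -0.16 (edgeR adjusted p 0.581). The number of neighbours called higher fell to 0 without Control replicate 2, Control replicate 3 or BRG1 replicate 2 and to 1 without Control replicate 1 or BRG1 replicate 1, and the number called lower fell from 1 to 0 without Control replicate 2, Control replicate 3 or BRG1 replicate 2.

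**Figure D4:**
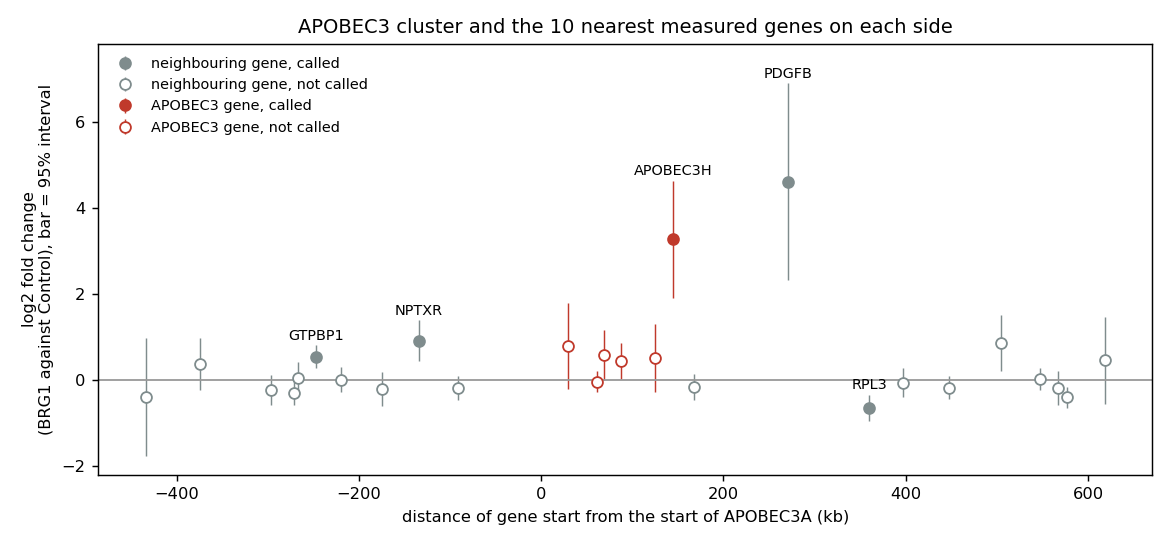
Log2 fold change of BRG1 against Control with its 95% interval (vertical axis) against the distance of each gene's start from that of APOBEC3A in kilobases (horizontal axis), for the 6 tested APOBEC3 genes (red) and the 10 nearest measured genes on each side (grey), filled where edgeR called the gene. APOBEC3H stands above the other members, and the called neighbours GTPBP1, NPTXR, PDGFB and RPL3 lie on both sides among genes that were not called.

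Several APOBEC3 genes are typical of blood cells, so markers of such cells were read in the same libraries. Of 8 lymphoid markers, 5 held 3 counts or fewer in every sample, among them CD3E, CD3D, CD2 and MS4A1. The summed level of the 8 was 7.53 to 14.8 CPM in Control and 7.88 to 16.2 in BRG1 samples, most of it from PTPRC, which had 11.0 ± 3.56 and 11.3 ± 4.18 (SD, n = 3). Of 6 myeloid markers, the summed level was 25.7 to 55.7 CPM in Control and 42.7 to 76.4 in BRG1 samples, most of it from CD68, a lysosomal gene that many cell types express. FCGR3A held 3 counts or fewer in every sample, and LYZ, the lysozyme gene, was called higher from at most 1.72 counts in Control to at most 25.0 in BRG1 samples. Of 5 fibroblast markers the summed level was 111 to 183 CPM in Control and 85.1 to 197 in BRG1 samples, with PDGFRA called higher. PDGFRA held at most 7.77 counts in a Control sample. Like APOBEC3H, LYZ and PDGFRA passed the filter on low counts through the BRG1 samples alone, so they could only count as higher. Over all tested genes edgeR called 9.23% higher. The part of the lymphoid, myeloid and fibroblast markers in the APOBEC3H values was not tested.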

How the data were processed

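RNA-seq of 3 Control and 3 BRG1 samples of COV434 cells was analysed. According to the methods and processing notes, the authors used STAR (2.5.3a) on hg38, Salmon (0.8.2) with GENCODE and tximport. The deposited table holds an estimated count for each gene symbol and sample, on tximport's scale that corrects TPM for length and depth. Values were rounded for testing. The libraries are unstranded, and reads that fit several genes were divided by Salmon's model.

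The main test was edgeR 4.0.16 (quasi-likelihood, TMM, two-sided, R 4.3.3) on the 14225 genes that reached 10 counts in 3 or more samples. A gene was called at a Benjamini-Hochberg adjusted p under 0.05 over all of them. Standard errors and 95% intervals were computed from the fold change and its F statistic. The study's methods name DESeq2. It was run as an alternative (1.42.0), because more of its calls were false on simulated data with the same group sizes. Limma-voom (limma 3.58.1), other filters, size factors, a threshold of 0.01, a replicate block and leaving out each sample were the other alternatives. In simulated BRG1 against Control data (13735 genes, 200 changed by 2 on the log2 scale), edgeR recovered 85.0% of changed genes, and 5.56% of its calls were false. The simulated data had no replicate effect and as many genes raised as lowered, unlike the real data, so these shares may not carry over.

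Replicate numbers were taken from the sample titles, which do not say that same-numbered samples were handled together. The deviations of same-numbered samples from their group means correlated with r of 0.31, 0.26 and 0.44 over genes. Between different numbers r was -0.33 to 0.07. The main test leaves this likeness out and the replicate block takes it in, so the calls of APOBEC3D and APOBEC3F depend on that choice.

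The members and all lists were chosen with earlier results of these data known. Genes were named by rule: every member, SMARCA4, up to 4 called genes with the largest change in each list (all where 5 or fewer were called), and the 3 genes most correlated with each called member on log2 CPM with a prior of 0.5 counts. Genes that the block or an unadjusted p alone picked out, low relatives and CBX7 were named after their values were seen. Of the list members 1 symbol was not in the table, and some genes that the rule picks are not reported here. The floor is 3 counts in a library, and bounds were computed against it. Intervals cover the spread between these samples.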

Additional observations from a re-analysis of the deposited data

How the results depend on the processing

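APOBEC3H was called higher in all 14 alternatives (log2 fold change 2.80 to 3.55, adjusted p 0.000777 to 0.0415), and no member was called lower in any. The fits that left out 1 sample kept the filter of all 6 samples, which APOBEC3H needed to be tested without a BRG1 sample. Members called higher were 3 with the replicate block in edgeR and in DESeq2, in place of 1, and 1 in every other alternative. APOBEC3B and APOBEC3G were called in none, with adjusted p of 0.0754 to 0.726 and 0.376 to 0.722. The APOBEC3C log2 fold change was called in none, was lowest at -0.11 when Control replicate 1 was dropped, and turned sign to 0.010 without BRG1 replicate 2. Among all tested genes, 2095 were called higher with DESeq2 and the block in place of 1313, and 918 to 2095 over all alternatives. Those called lower, 140, were 294 with DESeq2, 783 with the block, 1035 with DESeq2 and the block, 31 at an adjusted p under 0.01, and 37 to 236 on leaving out 1 sample. Each of the 6 samples moved this number by over 1.5 times, and the extremes came from BRG1 replicates 2 and 3.

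With the block, uracil repair genes called were 1 higher and 1 lower in edgeR and in DESeq2, retroviral restriction genes called lower were 1 in both, and APOBEC3B regulators called were 2 higher and 2 lower in edgeR and 3 and 3 in DESeq2. Of all tested genes, the block gave 13.3% higher and 5.50% lower in edgeR, and 13.4% and 6.62% in DESeq2. Neighbours called higher, 3, were 4 with DESeq2 and with the block in either tool, 0 at an adjusted p under 0.01, and 0 to 3 when a sample was left out. Interferon signalling genes called higher, 6, were 9 with the block in either tool. Neighbours called lower were 2 (RPL3 and RPS19BP1) with DESeq2 and with the block in either tool, 0 at an adjusted p under 0.01, and 0 to 1 when a sample was left out. The block changed no call of a member beyond APOBEC3D and APOBEC3F. The cause of these changes was not tested, apart from fewer samples or a stricter threshold where the setting names them. Depth limits APOBEC3A and the Control level of APOBEC3H.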
